A study of Mus musculus with 8 samples.

Results

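The levels of 10 germline genes were followed in mouse embryonic stem cells (mESCs) that had lost the H3K9 methyltransferase SETDB1, had been treated with UNC0642, an inhibitor of the H3K9 methyltransferases G9a and GLP, or both. They are Dazl, Stk31, Tex101, Taf7l, Slc25a31, Rpl10l, Brdt, Boll, Tuba3a and Tuba3b, 10 of the 24062 genes in the count tables. They were taken by name and were chosen by their levels in these same 4 conditions, as germline genes that differed after Setdb1 loss or after both treatments, so their changes between conditions are given as a description, without a test. All 10 passed the filter on low counts (15313 genes did), but only 7 reached its level in both WT libraries. Tex101, Boll and Tuba3b passed through other conditions.

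Poly(A) RNA was sequenced from 4 conditions with 2 biological replicates each, 8 libraries in all. Every library came from the same line, #33-6, which carries a conditional Setdb1 allele, so that all 4 conditions, the WT one included, share this background and the results rest on 1 line. WT mESCs received neither agent. UNC0642-treated mESCs received 2 µM UNC0642 for 3 days, and Setdb1 KO mESCs received 800 nM 4-OHT, which induces the deletion, for 5 days. In UNC0642-treated Setdb1 KO mESCs, the combination, the labels give 2 days of 4-OHT followed by 3 days of 2 µM UNC0642, whereas the methods of the study give 5 days of 4-OHT. No condition had 4-OHT without deletion or the solvent of UNC0642. The 2 conditions with deletion are called the KO and the combined condition from here on. The cells grew on gelatin without feeder cells.

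Germline genes of this kind are silent in somatic cells, many of them through methylation of CpG-rich promoters, and in mESCs they are held at a low level. Several repressors act on such promoters in mESCs: DNA methylation, the variant Polycomb complex PRC1.6, whose MGA and MAX subunits bind the E-box and whose E2F6 subunit binds E2F-type sites, and the H3K9 methyltransferases, of which SETDB1 writes H3K9me3 and G9a and GLP write H3K9me2. The study reports that H3K9me2 in mESCs depends on SETDB1 as well. The products of the 10 genes differ in role. DAZL and BOLL are RNA-binding proteins of the DAZ family. STK31 is a germ cell protein with a tudor and a kinase-like domain, and TEX101 is a surface glycoprotein of germ cells. TAF7L replaces the TFIID subunit TAF7 in male germ cells, and BRDT is the testis member of the BET bromodomain family. SLC25A31 is the ADP/ATP carrier of male germ cells, RPL10L is the ribosomal protein encoded by an autosomal retrocopy of the X-linked Rpl10, and Tuba3a and Tuba3b encode alpha-tubulin of the testis.

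The promoters of 6 of the 10 genes are shown, chosen because the conditions separate these genes. Stk31, Taf7l and Slc25a31 were far higher after Setdb1 loss than under UNC0642, Rpl10l was higher after either treatment, and Tuba3a and Tuba3b differed several-fold between replicates. Each line holds the 250 bases before the RefSeq start of the gene on GRCm38.p6, 5′ to 3′ on the strand of the gene. Capitals mark the E-box CACGTG or the E2F-type motif TTCCCGC, both searched on both strands. Not shown are Dazl and Tex101, also higher in the KO than under UNC0642, which hold neither motif, and Brdt and Boll, which hold an E-box at their first start. Since the 6 were chosen by their levels, no relation of motif to level is read from them.
Stk31, chr6:49395289-49395538, plus strand: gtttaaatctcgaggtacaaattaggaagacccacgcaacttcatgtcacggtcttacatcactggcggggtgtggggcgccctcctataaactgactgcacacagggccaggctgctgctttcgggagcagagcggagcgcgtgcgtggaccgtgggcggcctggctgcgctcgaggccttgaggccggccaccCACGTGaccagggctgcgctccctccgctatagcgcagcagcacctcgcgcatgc
Taf7l, chrX:134476491-134476740, minus strand: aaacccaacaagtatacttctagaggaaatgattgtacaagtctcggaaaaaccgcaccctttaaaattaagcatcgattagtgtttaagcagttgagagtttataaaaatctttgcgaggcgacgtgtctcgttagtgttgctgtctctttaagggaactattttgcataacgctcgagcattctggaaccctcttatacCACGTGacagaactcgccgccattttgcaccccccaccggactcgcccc
Slc25a31, chr3:40708621-40708870, plus strand: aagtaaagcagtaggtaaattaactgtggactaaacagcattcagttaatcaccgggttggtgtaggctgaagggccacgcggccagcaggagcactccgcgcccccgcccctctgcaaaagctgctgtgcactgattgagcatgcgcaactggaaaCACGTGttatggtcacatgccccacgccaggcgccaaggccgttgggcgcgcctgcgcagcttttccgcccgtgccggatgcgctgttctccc
Rpl10l, chr12:66284402-66284651, minus strand: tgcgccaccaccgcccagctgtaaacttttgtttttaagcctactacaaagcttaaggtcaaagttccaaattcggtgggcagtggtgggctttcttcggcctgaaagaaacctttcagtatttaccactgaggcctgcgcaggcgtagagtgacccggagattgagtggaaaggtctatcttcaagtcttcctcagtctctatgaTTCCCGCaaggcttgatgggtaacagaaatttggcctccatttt
Tuba3a, chr6:125286082-125286331, minus strand: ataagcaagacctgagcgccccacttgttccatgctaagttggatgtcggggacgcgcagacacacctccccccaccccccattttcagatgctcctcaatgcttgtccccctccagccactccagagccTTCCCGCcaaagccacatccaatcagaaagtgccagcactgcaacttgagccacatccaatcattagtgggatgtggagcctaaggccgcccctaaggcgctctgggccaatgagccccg
Tuba3b, chr6:145615713-145615962, plus strand: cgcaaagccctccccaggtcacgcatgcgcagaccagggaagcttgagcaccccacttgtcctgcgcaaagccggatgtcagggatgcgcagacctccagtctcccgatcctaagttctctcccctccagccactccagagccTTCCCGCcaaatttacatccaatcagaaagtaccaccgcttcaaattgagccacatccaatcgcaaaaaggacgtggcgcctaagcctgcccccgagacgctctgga

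All 10 genes had an entry in the RefSeq promoter table, which reaches from 250 bases before to 50 bases after a start. In this window of 300 bases, with the first start of each gene, the E-box was present in 5 of the 10 genes (Boll, Slc25a31, Brdt, Stk31 and Taf7l) and in 7.24% of all 27025 genes in the table. TTCCCGC was present in 4 of the 10 genes (Slc25a31, Tuba3a, Tuba3b and Rpl10l) and in 4.66% of all genes. Slc25a31 held both without overlap, its TTCCCGC beginning 20 bases after the start and thus outside the printed stretch. Dazl and Tex101 held neither. Boll and Stk31 have a further start in RefSeq, where the window of Boll held TTCCCGC and no E-box and that of Stk31 the E-box. The window of Tex101 (24672001 to 24672300, minus strand) lies inside its GENCODE span, which ends at 24676675, so it may not cover the annotated 5′ end. The E-box began 49 bases before the start in Taf7l, 55 in Stk31, 78 in Brdt, 93 in Slc25a31 and 9 in Boll. A match describes these letters and is neither a measured site nor a cause of the levels below.

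The ratio of observed to expected CpG in the window had a median of 0.719 over the 10 genes, from 0.472 in Tuba3a to 1.03 in Taf7l. For Boll it was 0.504 at the first start and 0.89 at the further start. Over all genes in the table the median was 0.389 (quartiles 0.174 and 0.754), so that the median of the 10 genes lay inside the middle range of all genes. The 10 genes are all tested genes, and among the 11284 tested genes with an entry the median was 0.742, above that of the 10 genes, with the E-box in 9.96% and TTCCCGC in 8.28%. Since this covers fewer than 80% of the 15313 tested genes, that check is void and nothing is read from it. The upstream stretches of Tuba3a and Tuba3b were 79.4% identical over 218 aligned bases. Their longest shared run had 33 bases, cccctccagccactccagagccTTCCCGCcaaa, and held the E2F-type motif of both genes. The longest open reading frames of the 2 genes were 97% identical over 1353 bases, so that reads from one can be counted for the other, and their counts are uncertain to that extent.

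Total counts per library were between 11702590 and 26807807, and levels are given as TMM-scaled CPM (counts relative to the effective library size), as replicate 1 and replicate 2 in this order. The floor, 3 counts, was between 0.108 and 0.311 CPM and covers counting error only. Setdb1, the deleted gene, was at 169 and 127 CPM in WT mESCs, 130 and 86.4 under UNC0642, 47.3 and 51.0 in the KO, and 61.1 and 34.1 in the combined condition. Each KO library was thus below each library with the undeleted allele, in keeping with its label, although the counts cover the whole gene and do not show the deleted part alone. On the log2 scale Setdb1 differed from WT mESCs by -1.59 (SE 0.44) in the KO and by -1.64 (SE 0.44) in the combined condition. These had edgeR adjusted p-values of 0.181 and 0.0746, which became 0.0164 and 0.00593 when replicate numbers were blocked. The 7 markers of pluripotent cells, Pou5f1, Sox2 and Nanog among them, were present in every library, with summed levels between 2220 and 4630 CPM.

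The DAZ family genes were both higher after Setdb1 loss, at levels that differed widely. Dazl (chromosome 17, 50279395 to 50293636) was at 6.01 and 15 CPM in WT mESCs, 9.82 and 15.3 under UNC0642, 95.1 and 64.2 in the KO, and 97.6 and 115 in the combined condition. Both conditions with deletion lay above both without it, the combined condition above the KO, and the WT libraries overlapped those under UNC0642. The log2 difference of Dazl from WT mESCs was 2.91 (SE 0.54) in the KO, 3.33 (SE 0.55) in the combined condition and 0.25 (SE 0.50) under UNC0642 alone. Boll (chromosome 1, 55248658 to 55363469) was at 0.174 and 0.289 CPM in WT mESCs, that is 2 and 8 counts, at 0.752 and 0.684 under UNC0642, at 1.95 and 1.38 in the KO, and at 1.76 and 0.956 in the combined condition. Its order was WT, UNC0642-treated and then both KO conditions, which overlapped each other. The log2 differences of Boll from WT mESCs, 1.55 (SE 0.78) under UNC0642, 2.76 (SE 0.78) in the KO and 2.44 (SE 0.79) in the combined condition, rest on few counts: with a prior count of 2 they were 1.28, 2.39 and 2.1.

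Stk31 had the highest level per length of exon among the 10 genes in the KO. It (chromosome 6, 49395604 to 49469501) was at 26.1 and 11.6 CPM in WT mESCs, 28.5 and 16.7 under UNC0642, 335 and 292 in the KO, and 235 and 438 in the combined condition. The 2 conditions with deletion overlapped each other, as did the 2 without, and a wide gap lay between them. The log2 difference of Stk31 from WT mESCs was 4.06 (SE 0.59) in the KO, 4.16 (SE 0.60) in the combined condition and 0.26 (SE 0.53) under UNC0642. Tex101 (chromosome 7, 24668007 to 24676675) had the largest log2 difference of the 10 genes. It was at 0.348 and 0.469 CPM in WT mESCs, 4 and 13 counts, and at 0.611 and 1.08 under UNC0642. It was at 23.8 and 39.6 CPM in the KO and at 7.58 and 25 in the combined condition. Both UNC0642-treated libraries lay above both WT libraries, and the 2 conditions with deletion overlapped. The log2 difference of Tex101 from WT mESCs was 6.22 (SE 0.82) in the KO, 5.27 (SE 0.79) in the combined condition and 1.01 (SE 0.73) under UNC0642.

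Both genes for transcription and chromatin factors were higher in the KO than in WT mESCs, Taf7l by far more. Taf7l (chromosome X, 134460118 to 134476490) was at 2.87 and 2.60 CPM in WT mESCs, 3.20 and 3.45 under UNC0642, 44.5 and 51.0 in the KO, and 29.2 and 63.8 in the combined condition. Its log2 difference from WT mESCs was 4.13 (SE 0.53) in the KO, 4.09 (SE 0.53) in the combined condition and 0.28 (SE 0.48) under UNC0642, and the combined condition spanned both Setdb1 KO libraries. Brdt (chromosome 5, 107331159 to 107387058) was at 2.70 and 0.974 CPM in WT mESCs, 2.02 and 0.468 under UNC0642, 7.37 and 9.74 in the KO, and 4.15 and 4.89 in the combined condition. It was the 1 gene of the 10 that was lower in the combined condition than in the KO without overlap, by -0.92 on the log2 scale (SE 0.76). Its log2 difference from WT mESCs was 2.25 (SE 0.80) in the KO, 1.33 (SE 0.79) in the combined condition and -0.54 (SE 0.79) under UNC0642, where the libraries overlapped those of WT mESCs.

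Slc25a31 and Rpl10l stand in for widely expressed genes in male germ cells, and they differed in which treatment they followed. Slc25a31 (chromosome 3, 40708855 to 40726096) was at 1.57 and 2.85 CPM in WT mESCs, 3.29 and 4.50 under UNC0642, 29.8 and 44.1 in the KO, and 34.9 and 53.5 in the combined condition. The 2 KO conditions overlapped, and UNC0642-treated mESCs lay above WT mESCs by less than 1 log2 unit: 0.80 (SE 0.50), against 4.04 (SE 0.55) in the KO and 4.30 (SE 0.55) in the combined condition.

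Rpl10l (chromosome 12, 66283379 to 66284401) was the 1 gene of the 10 with a higher level under UNC0642 than after Setdb1 loss. It was at 5.66 and 11.7 CPM in WT mESCs, 45.3 and 60.7 under UNC0642, 34.3 and 28.4 in the KO, and 92.8 and 149 in the combined condition. The 4 conditions did not overlap, in the order WT, Setdb1 KO, UNC0642-treated and combined. The log2 difference of Rpl10l from WT mESCs was 2.60 (SE 0.49) under UNC0642, 1.85 (SE 0.48) in the KO and 3.79 (SE 0.51) in the combined condition. The combined condition was above the KO by 1.95 (SE 0.48) and above UNC0642-treated mESCs by 1.19 (SE 0.46) on the log2 scale. Its excess over the sum of both single differences, the interaction, was -0.66 (SE 0.65). The markers of the 2-cell-like state, a rare state of mESC cultures, had the same order of conditions within each replicate. The summed level of these 7 markers (Zscan4c, Zscan4d, Zscan4f, Tcstv1, Tcstv3, Usp17lc and Zfp352, of which the Zscan4 and the Tcstv genes are near copies whose counts are uncertain) was 8.10 and 24.5 CPM in WT mESCs, 349 and 132 in the KO, 744 and 239 under UNC0642, and 1310 and 563 in the combined condition. Under UNC0642 and in the combined condition this sum was higher in replicate 1, whereas Rpl10l was higher in replicate 2. In WT mESCs and in the KO the replicates differed in the same direction for both. None of the 7 was at 0 outside WT mESCs. By edgeR 7 of 7 were called higher in the combined condition (3.60% of all features were) and 0 under UNC0642 or in the KO, where 7 of 7 had an unadjusted p under 0.05 and DESeq2 on all 8 libraries called 7 of 7. When replicate numbers were blocked, 1 of 7 (Usp17lc) was called under UNC0642 and 6 of 7 in the KO. The part of this state in the level of Rpl10l was not tested. In bulk RNA, more cells of one state and more RNA per cell cannot be told apart.

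The alpha-tubulin genes differed several-fold between replicates as well as between conditions. Tuba3a (chromosome 6, 125278274 to 125286042) was at 4.44 and 23.8 CPM in WT mESCs, 4.14 and 29.0 under UNC0642, 40.4 and 85.7 in the KO, and 24.2 and 63.3 in the combined condition. Replicate 2 was above replicate 1 in every condition, by 5.36-fold in WT mESCs, 7-fold under UNC0642, 2.12-fold in the KO and 2.62-fold in the combined condition. Within replicate 1, Setdb1 KO over WT mESCs was 9.09-fold, and within replicate 2 it was 3.60-fold. Tuba3b (chromosome 6, 145615757 to 145621479) was at 0 and 1.95 CPM in WT mESCs, 0.705 and 3.02 under UNC0642, 3.05 and 10.8 in the KO, and 1.66 and 9.93 in the combined condition. The count of 0 in replicate 1 of WT mESCs allows up to 0.261 CPM. Both KO conditions overlapped for each gene, and for Tuba3b the combined condition also overlapped WT mESCs. The log2 difference from WT mESCs in the KO was 2.15 (SE 1.00) for Tuba3a and 2.73 (SE 1.41) for Tuba3b, and in the combined condition it was 1.62 (SE 0.99) and 2.49 (SE 1.4).

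**Figure D1:**
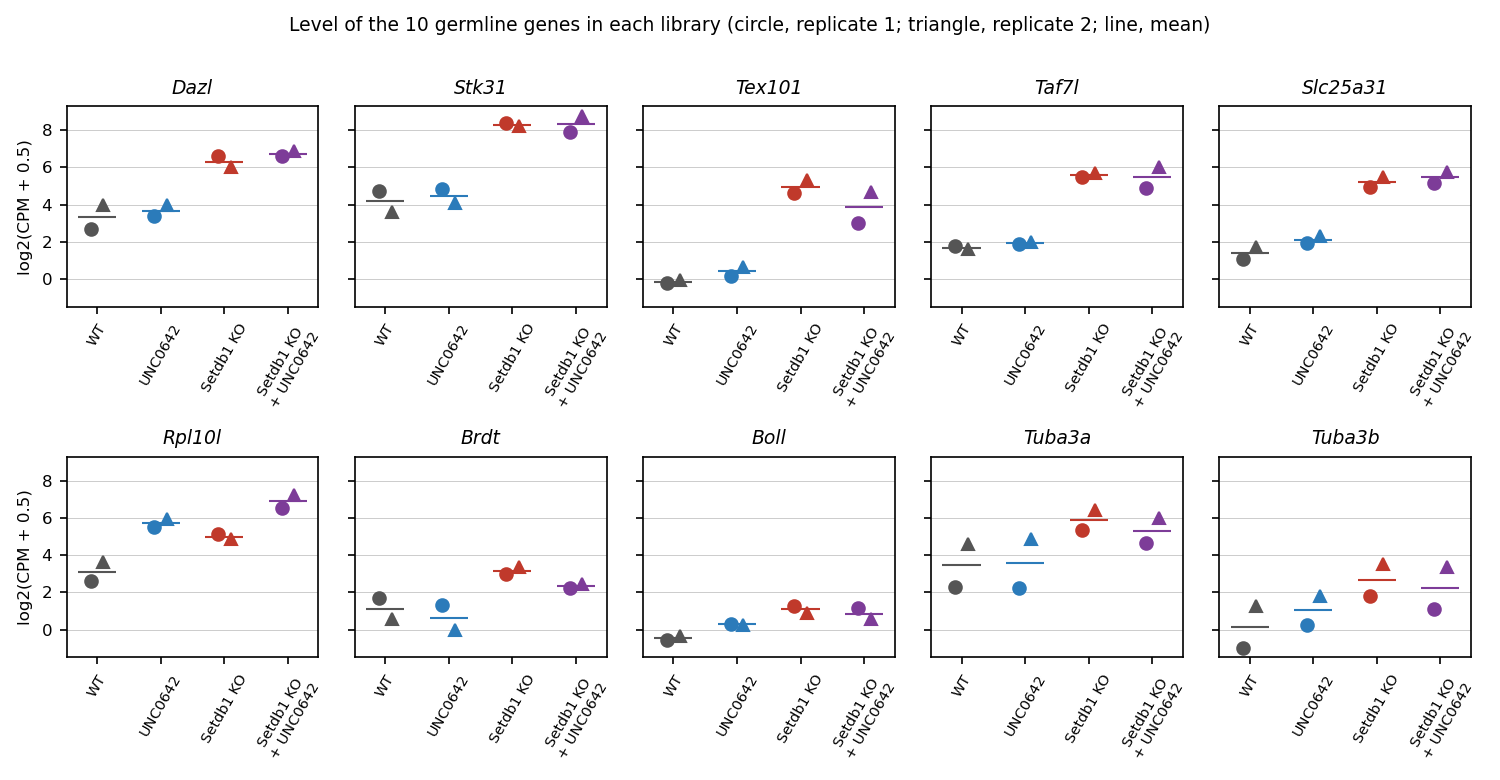
Level of each of the 10 genes, as log2 of CPM plus 0.5, in the 4 conditions. Circles are replicate 1, triangles replicate 2 and lines the mean of both. In Dazl, Stk31, Tex101, Taf7l and Slc25a31 the conditions with deletion stand apart from those without, as they do by a smaller gap in Brdt and Boll. Rpl10l has 4 separate levels, and in Tuba3a and Tuba3b replicate 2 is above replicate 1 throughout.

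Over all 10 genes, the median log2 difference from WT mESCs was 2.83 in the KO (from 1.85 in Rpl10l to 6.22 in Tex101), 3.56 in the combined condition (from 1.33 to 5.27) and 0.54 under UNC0642 (from -0.54 in Brdt to 2.60 in Rpl10l). The medians over all 16245 features tested were -0.02, -0.01 and -0.02. In the KO, both libraries were above both WT libraries in 10 of the 10 genes (17.5% of all features), in the combined condition in 9, all but Tuba3b (22.3%), and under UNC0642 in 5, Tex101, Taf7l, Slc25a31, Rpl10l and Boll (13.7%). None of the 10 lay below WT mESCs without overlap in the KO (13.1% of all features did), in the combined condition (21.1%) or under UNC0642 (10.7%). UNC0642 added to the KO gave a median log2 difference of -0.14, from -0.95 (SE 0.63) in Tex101 to 1.95 in Rpl10l. Dazl and Rpl10l were above the KO without overlap (12.2% of all features were) and Brdt below (13.3%). Deletion under UNC0642, the combined condition over UNC0642-treated mESCs, gave a median of 2.48 and 8 genes above without overlap, all but Tuba3a and Tuba3b (16.3%), which were nevertheless higher within each replicate number.

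the KO set directly against UNC0642-treated mESCs had 9 of the 10 genes above without overlap (12.6% of all features), and Rpl10l below (12.0%), by -0.76 on the log2 scale (SE 0.46). The highest of the 9 was Tex101, at 5.21 (SE 0.76), and the lowest Boll, at 1.21 (SE 0.71). The interaction of both treatments was negative in 9 of the 10 genes, with the largest sizes in Tex101 at -1.97 (SE 0.97) and Boll at -1.87 (SE 1.04), and 0.17 (SE 0.71) in Dazl. Its sign turned in 6 of the 10 when 1 library was left out: Dazl (to -0.65 without WT replicate 2), Stk31 (0.32 without WT replicate 2), Taf7l (0.13 without replicate 1 of the combined condition), Brdt (1.01 without UNC0642 replicate 1), and Tuba3a and Tuba3b (1.32 and 0.39 without UNC0642 replicate 2). No feature was called for the interaction by edgeR at an adjusted p under 0.05 (30 higher and 92 lower at an unadjusted p under 0.05, and 1 lower with DESeq2 on all 8 libraries). The median interaction of the 10 genes was -0.6, beside -0.04 over all features, and 0 of the 10 had an unadjusted edgeR p under 0.05. Since the genes were chosen by these levels, nothing is read from the number of negative signs.

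**Figure D2:**
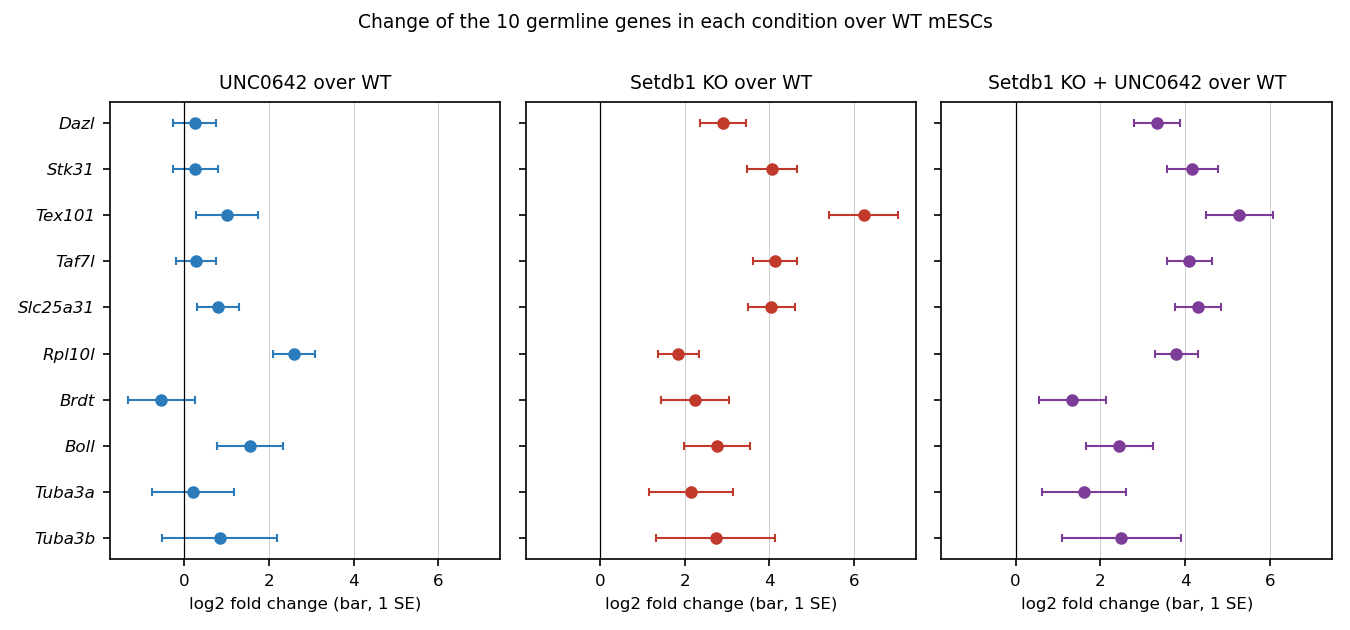
Log2 difference of the 10 genes from WT mESCs in the 3 other conditions, with 1 SE from the edgeR fit as bars. This fit had no replicate block, so the bars include the difference between replicate numbers. The point of Rpl10l moves from 2.60 under UNC0642 to 1.85 after Setdb1 loss, whereas that of Stk31 moves from 0.26 to 4.06. The bars of Tuba3a and Tuba3b are the widest.

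In the edgeR fit of all features, 5 of the 10 genes had an adjusted p under 0.05 in the KO (Dazl, Stk31, Tex101, Taf7l and Slc25a31), where 1.11% of all features were called higher. The combined condition added Rpl10l, 6 of 10, beside 3.60% of all features. Under UNC0642 alone 0 of 10 and 0% of features were called (Rpl10l at an unadjusted p under 0.05). Over UNC0642-treated mESCs, 5 of 10 were called in the combined condition (1.13% of all features) and 4 in the KO (0.529%), and over the KO 0 were called in the combined condition (0% of features; Rpl10l at an unadjusted p under 0.05). Since the genes were chosen with these comparisons in view, nothing is read from these counts. When replicate numbers were blocked, 8 of 10 were called in the KO (3.80% of features; Rpl10l, Tuba3a and Tuba3b added), 9 in the combined condition (9.98%; Boll, Tuba3a and Tuba3b added), Rpl10l under UNC0642 (0.166%), and 6 in the KO over UNC0642-treated mESCs (2.22%; Dazl and Tuba3a added). DESeq2 on all 8 libraries also called Rpl10l under UNC0642 (0.784% of features) and in the combined condition over the KO (0.560%). Without either WT library 0 of 10 were called in the KO and in the combined condition, as were 0 of all 16245 features but for 30 in the combined condition without WT replicate 2. This loss is thus shared by nearly all features, and the log2 differences in the KO stayed between 1.4 for Tuba3a and 10.09 for Tuba3b, the latter without WT replicate 2, which leaves a WT count of 0.

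Compared per length of exon, the 10 genes also differed in where they started. In WT mESCs the levels were 9.36 CPM per kb for Tuba3a, 8.46 for Rpl10l, 5.83 for Stk31 and 2.76 for Dazl, and at most 1.22 for the other 6, the lowest being Boll at 0.0659. In the KO Stk31 led with 96.8 CPM per kb, followed by Tuba3a with 41.8 and Rpl10l with 30.6. Taf7l, Dazl, Tex101 and Slc25a31 lay together between 17.4 and 21.3 CPM per kb. In the combined condition Rpl10l, at 118 CPM per kb, and Stk31, at 104, were the highest, and their library values overlapped.

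The relatives of these genes, widely expressed except for Tuba8, were called in no comparison with WT mESCs. Few features were called there at all: 0% higher under UNC0642, 1.11% in the KO and 3.60% in the combined condition. Of 11 relatives tested (Taf7, Rpl10, Slc25a4, Slc25a5, Brd2, Brd3, Tuba1a, Tuba1b, Tuba1c, Tuba4a and Tuba8), 0 were called against WT mESCs by edgeR (0 also at an unadjusted p under 0.05 and 0 by DESeq2), and their median log2 difference in the KO was -0.30 (from -0.72 to 0.39). In the combined condition it was -0.15 (from -0.54 to 2.43, the highest being Tuba8, which stayed below 1 CPM in every library). Brd2 lay above and Brd3 below WT mESCs without overlap in all 3 other conditions, by 0.98 (SE 0.44) and -0.52 (SE 0.40) in the combined condition. The level of Taf7l per length was 2.18% and 3.26% of that of Taf7 in WT mESCs, 25.4% and 80.8% in the KO, and 16.6% and 67.2% in the combined condition. Taf7 itself was at 194 and 117 CPM in WT mESCs, 258 and 92.9 in the KO, and 258 and 140 in the combined condition. In the KO the 2 percentages thus differ mainly by the level of Taf7, since Taf7l was at 44.5 and 51.0 CPM. Rpl10l was at 1.20% and 3.74% of Rpl10 in WT mESCs, 10.6% and 21.0% under UNC0642, 10.8% and 9.10% in the KO, and 25.9% and 42.4% in the combined condition. Slc25a31 reached 3.69% and 8.48% of the summed level of Slc25a4 and Slc25a5 in the KO, from 0.231% and 0.364% in WT mESCs. Tuba3a stayed at or below 5.71% of Tuba1a, Tuba1b and Tuba1c. Over the longest open reading frames, Rpl10l and Rpl10 were 84.8% identical, Taf7l and Taf7 66.0% of the aligned bases, and Tuba3a and Tuba1a 83.6%.

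**Figure D3:**
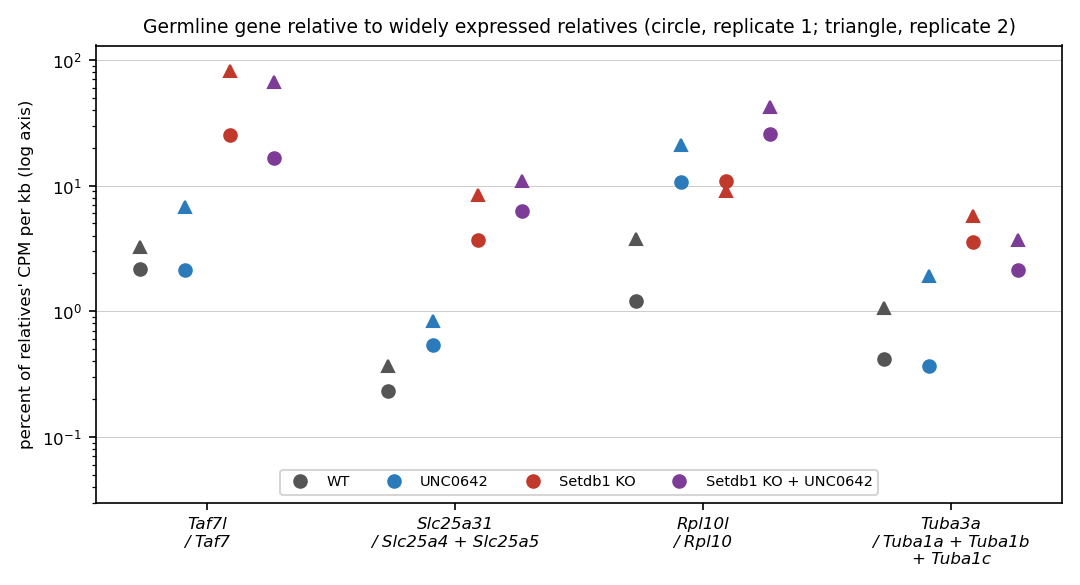
Level per kb of exon of 4 of the genes as a percentage of the widely expressed relatives named under each, on a log axis, with 1 point per library (circle, replicate 1; triangle, replicate 2) and conditions by colour. Taf7l reaches 80.8% of Taf7 in 1 Setdb1 KO library, in which Taf7 was at 92.9 CPM, against 258 in the other. Rpl10l reaches 42.4% of Rpl10 in 1 library of the combined condition.

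Of 20 other germline genes, chosen like the 10 with earlier results known, 20 were tested. The 5 named below were then picked for their small p-values in these same libraries. Their values are thus a description, and nothing is read from the calls and p-values of this list. In the KO 3 were called higher (1.11% of all features were) and 0 lower, and the median log2 difference was 2.06 (from -0.30 to 3.88). In the combined condition 6 were called higher (3.60% of all features were) and 0 lower, with a median of 1.82 (from -1.82 to 5.35). UNC0642 added to the KO gave a median of -0.79 (from -2.01 to 5.17), with 0 called. Tex14, Smc1b and Dmc1 overlapped WT mESCs in the KO, at -0.15, -0.30 and 0.33, as did Asz1 below. Under UNC0642 the median was -0.05 and edgeR called 0, whereas Asz1 had an unadjusted p under 0.05 and was called by DESeq2 on all 8 libraries (0.784% of features were called higher). When replicate numbers were blocked, 12 were called in the KO and 11 in the combined condition, where 3.80% and 9.98% of all features were called higher. DESeq2 on all 8 libraries called 12 and 10, beside 3.32% and 6.62% of all features called higher. Mael, a factor of the piRNA pathway, was at 5.92 and 6.42 CPM in WT mESCs, 64.1 and 77.7 in the KO, and 38.2 and 38.0 in the combined condition. It rose by 3.52 (SE 0.41, edgeR adjusted p = 0.00972) and 2.62 (SE 0.40, adjusted p = 0.00894) on the log2 scale in the 2 conditions with deletion. Mov10l1, a helicase of the same pathway, rose by 3.18 (SE 0.40, edgeR adjusted p = 0.0108) and 2.23 (SE 0.39, adjusted p = 0.0151). Hormad1, a protein of the meiotic chromosome axis, rose by 2.82 (SE 0.48, edgeR adjusted p = 0.0291) and 2.59 (SE 0.47, adjusted p = 0.0179). The log2 difference of Tex12, a protein of the synaptonemal complex, was 3.88 in the KO (SE 0.79, edgeR adjusted p = 0.0592, or 0.00931 when replicate numbers were blocked), and it rose by 4.08 (SE 0.79, adjusted p = 0.0232) in the combined condition. Asz1, a piRNA pathway protein of the mitochondrial surface, stood apart from the other genes picked for small p-values. It was at 0.0871 and 0.469 CPM in WT mESCs, 2.40 and 2.05 under UNC0642, 0.423 and 0.275 in the KO, and 9.86 and 15.9 in the combined condition, where it rose by 5.35 (SE 0.82, edgeR adjusted p = 0.00899). Its Setdb1 KO libraries lay within the range of the WT libraries, with a log2 difference of 0.18 (SE 0.79) that turned to -0.41 without WT replicate 1 and to -0.17 without Setdb1 KO replicate 1. Without either WT replicate the edgeR adjusted p of these 5 genes in the combined condition was between 0.0552 and 0.157.

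**Figure D4:**
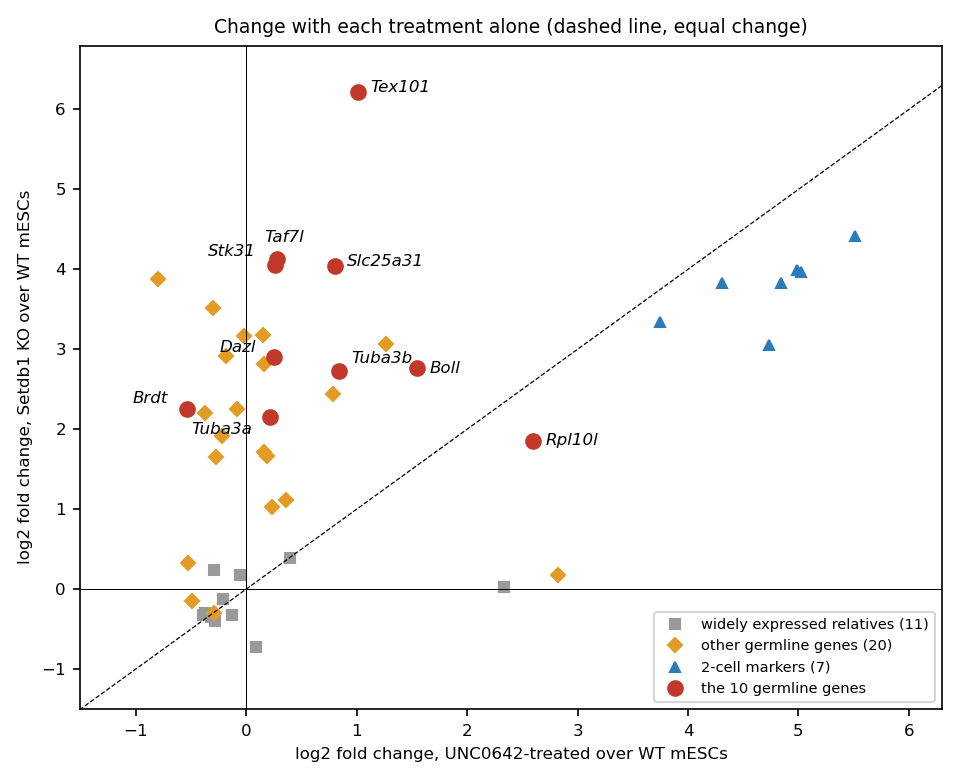
Log2 difference from WT mESCs under UNC0642 alone (horizontal) against that in the KO (vertical), 1 point per gene. Of the 10 germline genes 9 lie above the dashed line of equal change and Rpl10l below it, as do the 7 markers of the 2-cell-like state. Both axes share the WT libraries, so that no relation is drawn between them.

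Genes of known repressors of germline promoters had log2 differences from WT mESCs below 1 in size in all 3 other conditions. The calls below stand beside 0% of all features called higher under UNC0642, 1.11% in the KO and 3.60% in the combined condition. Of 15 PRC1.6 genes edgeR called 0 against WT mESCs (0 at an unadjusted p under 0.05, 0 by DESeq2, and with the block Tfdp1 in the combined condition), and in the KO their log2 differences were between -0.68 and 0.45. The most highly expressed were Cbx3, Rybp and Hdac1, with means over the 8 libraries of 492, 436 and 398 CPM. Of 8 genes of DNA methylation and its removal edgeR called 0 against WT mESCs (1 at an unadjusted p under 0.05, in the KO, and 0 by DESeq2), with log2 differences between -0.55 and 0.87 in the KO and means of 690, 325 and 291 CPM for Tet1, Uhrf1 and Dnmt1. Dnmt1, the maintenance methyltransferase, was at 367 and 405 CPM in WT mESCs, 299 and 273 under UNC0642, 339 and 197 in the KO, and 316 and 135 in the combined condition. All 3 other conditions lay below WT mESCs without overlap, with log2 differences of -0.43 (SE 0.50), -0.53 (SE 0.50) and -0.78 (SE 0.51), and none was called. Promoter methylation itself was not measured in these libraries.

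The listed genes of germ cell specification and of spermatids stayed low or were not called higher against WT mESCs. Other germline genes, Dazl among them, were higher after deletion, as given above. Of all features, 0% were called higher under UNC0642, 1.11% in the KO and 3.60% in the combined condition. Of 7 genes of germ cell specification edgeR called 0 against WT mESCs, although Prdm1 had an unadjusted p under 0.05 in the KO and was called lower with the block and by DESeq2 on all 8 libraries, and in the KO the log2 differences of all 7 were below 0, from -1.74 in Prdm1 to -0.13 in Tfap2c. Kit, Tfap2c and Prdm14 had the highest means over the 8 libraries, 100, 37.2 and 22.2 CPM. Of 12 spermatid genes only 2, Ldhc and Gapdhs, passed the filter. Against WT mESCs edgeR called 0 of these (1 at an unadjusted p under 0.05, in the KO, 0 by DESeq2, and Ldhc lower in the KO with the block). Of the 12, 8 were at or below 3 counts in every library, among them the protamine genes Prm1, Prm2 and Prm3. The summed level of these 12 genes was 2.87 and 2.27 CPM in WT mESCs, 4.56 and 3.13 under UNC0642, 1.27 in both KO libraries, and 3.01 and 3.09 CPM in the combined condition.

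The genes next to the 10 on the chromosome were mostly not called. Of the 20 nearest tested genes, 1 on each side, 1 was called, in the combined condition, where 3.60% of all features were called higher. This was Wdr20rt, the nearest tested gene on the lower side of Rpl10l at a distance of 1050 kb. It was at 0.522 and 1.34 CPM in WT mESCs and at 8.62 and 15.8 in the combined condition, a rise of 3.66 (SE 0.74, edgeR adjusted p = 0.0273), and at 2.68 and 6.08 under UNC0642 and 5.38 and 3.74 in the KO. Mdga2, on the higher side of Rpl10l at 182 kb, was at 0.0871 and 0.144 CPM in WT mESCs and 2.44 and 1.08 under UNC0642. It was at 0.169 and 0.33 CPM in the KO, and at 0.623 and 1.32 in the combined condition. Ceacam10 beside Tex101 had a log2 difference of 3.04 in the KO, at 5.76 and 0.55 CPM. In the combined condition that of Plcl1 beside Boll was 3.51, at 1.14 and 8.75 CPM, and that of Rftn1 beside Dazl -2.42. None of these was called. Fam221a ends 5.07 kb before Stk31. It was at 8.88 and 4.58 CPM in WT mESCs and at 17.4 and 14.7 in the KO, a log2 difference of 1.26 (edgeR adjusted p = 0.498), beside 4.06 for Stk31. Intu, 4.08 kb from Slc25a31, had a log2 difference of -0.06 in the KO, Drp2, 3.54 kb from Taf7l, one of -1.23, and Mars2, 0.188 kb from the far end of Boll, one of 0.49, and none of these was called. The GENCODE annotation places an opposite-strand gene over parts of Stk31, Brdt, Boll and Tuba3a. The one with counts in the tables, 4930417O13Rik over Tuba3a, was at 0 in every library. The counting was run with default parameters and its strand setting is not spelled out, so reads from overlapping genes may not be told apart.

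Among all tested genes outside the 10, the 5 whose profile was most like the mean profile of the 10, each scaled, were Mmp12 (Pearson r = 0.993 over 8 libraries), Akr1c21 (0.988), Asb13 (0.987), Gm4262 (0.985) and Klf17 (0.983). These values describe 8 libraries of 4 conditions that share their WT cells and scaling, and the genes were picked for them. Mmp12, a secreted metalloproteinase, was at 0.0871 and 1.01 CPM in WT mESCs, 0.987 and 1.76 under UNC0642, 205 and 263 in the KO, and 158 and 319 in the combined condition. Klf17, a Krüppel-like transcription factor, shared the shape at a far smaller size, from 1.74 and 2.06 CPM in WT mESCs to 3.9 and 4.95 in the KO. Within the 10, the profiles of Stk31 and Taf7l were the most alike over the 8 libraries (Pearson r = 0.984), those of Rpl10l and Brdt the least (0.162), and Tuba3a and Tuba3b were at 0.939.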

How the data were processed

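Poly(A) RNA-seq of 8 mESC libraries (4 conditions, 2 replicates each) was re-analysed. The deposited values are unnormalized counts for genes and for subfamilies of transposable elements (TEs), which the authors made with TEtranscripts after trimming with Trim Galore 0.3.7 and alignment with TopHat2. Counting used default parameters, and the gene annotation is not given in the sources used here. TE subfamilies took between 2.77% and 17.1% of the counts of a library, highest in the combined condition, and entered the scaling. The 10 genes and the other gene lists were chosen with earlier results of these data known.

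Genes and subfamilies were filtered together (filterByExpr, minimum count 10, total 15), leaving 15313 of 24062 genes and 932 of 1153 subfamilies. All 8 libraries were fitted with the quasi-likelihood test of edgeR 4.0.16 (R 4.3.3, TMM, prior count 0.125), with Benjamini-Hochberg adjustment within each comparison and calls at an adjusted p under 0.05. SEs were derived from the fold change and its F statistic. Total counts between 11702590 and 26807807 limit the precision of low genes, and floors cover counting error only. The replicates are described as biological, without saying how their cultures were separated, and p-values measure the spread between these samples. Deviations of same-numbered libraries from their condition means correlated in all 6 pairs of conditions (r from 0.351 to 0.706 over 15313 genes), so the numbers were taken as pairs and the fit with the replicate block is given beside the counts and calls it changed. All SEs, and the p-values given without mention of the block, come from the fit without it. They therefore include the difference between replicate numbers, which is large in Tuba3a and Tuba3b. No pair of replicates agreed within sampling noise. Alternatives were DESeq2 1.42.0, the block, other scalings, no filter, a prior count of 2, genes only, and leaving out each library. The test was tested on simulated counts.

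Named were the 10 genes, Setdb1, the relatives, and the 5 genes most like the 10 in profile. Of the nearest tested genes on each side, only those closest to one of the 10 or with the largest differences were named. Of each other list, up to 5 called genes with the smallest p in the combined condition were named, or else up to 3 with the highest level. Prdm1, Tfdp1, Tex14, Smc1b, Dmc1 and the protamine genes were named after their values were seen. Gene positions are from GENCODE and promoters from RefSeq, both on GRCm38.p6. Identity was computed on the longest open reading frames with Biopython 1.88. The level of Brdt beside its relatives is not reported here.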

Additional observations from a re-analysis of the deposited data

Results flagged for a closer look

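Mov10l1 stood alone among Setdb1, the 10 germline genes and the 5 other germline genes named for their calls. Without overlap, its UNC0642-treated libraries lay above WT mESCs, whereas those of the combined condition lay below the KO. It was at 7.84 and 8.08 CPM in WT mESCs and at 8.46 and 9.17 in UNC0642-treated mESCs, but at 68.0 and 76.6 in Setdb1 KO mESCs and at 34.8 and 39.7 in the combined condition. The log2 difference of UNC0642-treated from WT mESCs was 0.15 (SE 0.37), smaller than its SE. That of the combined condition from the KO was -0.96 (SE 0.37). The interaction was -1.10 on the log2 scale (SE 0.53), with an unadjusted p of 0.0644 by the edgeR quasi-likelihood test and an adjusted p of 1. Piwil2, another gene of the piRNA pathway, named after its values were seen, had the same arrangement, at 22.1 and 26.0 CPM in WT mESCs, 26.7 and 28.4 under UNC0642, 91.5 and 60.2 in the KO and 51.7 and 37.5 in the combined condition, with an interaction of -0.96 (SE 0.56, edgeR adjusted p of 1). The log2 difference of Piwil2 under UNC0642 from WT mESCs was 0.19 (SE 0.40), and that of the combined condition from the KO -0.77 (SE 0.40). None of the 10 germline genes had this arrangement without overlap. Within each replicate number, Tex101, Boll and Tuba3b were higher under UNC0642 than in WT mESCs and lower in the combined condition than in the KO, with log2 changes for Tex101 of 0.39 and 0.70 against -1.59 and -0.66. These differences were not tested.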

How the results depend on the processing

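Of the 10 germline genes, those called numbered 0 under UNC0642, 5 in the KO, 6 in the combined condition, 0 in the combined condition over the KO, 5 over UNC0642, and 4 in the KO over UNC0642. With the replicate block the count was 8 in the KO and 1 under UNC0642. DESeq2 gave 1 under UNC0642 and 1 in the combined condition over the KO, on all 8 libraries and on the 4 libraries compared. With total counts in place of TMM, 1 was called in the combined condition and 0 in the KO, both over UNC0642. That scaling moved the median of all features by up to -0.23 on the log2 scale. With 1 library left out, the range was 0 to 5 in the KO, 0 to 6 in the combined condition, 0 to 5 in the combined condition over UNC0642 and 0 to 4 in the KO over UNC0642. The 0 came without either WT library in the first 2 comparisons, without either UNC0642 library in the others and, for the KO over UNC0642, also without KO replicate 2, and the lone sample was then assumed to vary like the other conditions.

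The count over all features, 0 under UNC0642, 182 in the KO, 667 in the combined condition, 0 in the combined condition over the KO, 189 over UNC0642 and 88 in the KO over UNC0642, was 27, 698, 2790, 21, 755 and 427 with the block. DESeq2 on all 8 libraries gave 120, 568, 1518, 103, 583 and 356, and 1 for the interaction against 0, and on the 4 libraries compared 97, 467, 1255, 113, 557 and 340. Without a filter the count was 47 under UNC0642, 296 in the KO, 5 in the combined condition over the KO, 291 over UNC0642 and 161 in the KO over UNC0642. It was 319 in the KO with edgeR on 4 libraries, 117 with total counts, and with total counts 82 and 40 in the combined condition and the KO over UNC0642. With genes only it was 108 in the combined condition over UNC0642. Leaving out 1 library gave 0 to 1, 0 to 193, 0 to 662, 4 to 155 and 1 to 73 in the comparisons that called 0, 182, 667, 189 and 88. The cause of these differences was not tested.

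The log2 differences of the 10 genes moved by more than 1 SD between replicates in 4 values with all libraries kept (606 moved less), all of them Boll with a prior count of 2. With 1 library left out 85 moved by more and 475 by less, and Tuba3b in the combined condition went from 2.49 to between 0.65 and 9.87. Under UNC0642 the sign turned in Dazl, Stk31, Brdt, Tuba3a and Tuba3b. Asz1 in the KO turned from 0.18 to -0.41 without WT replicate 1 and -0.17 without KO replicate 1, its highest value being 1.93 without WT replicate 2. The replicate block is given beside each count that it moved by over 1.5 times or from 0.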
